A study of Mus musculus with 6 samples.

Results

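The 7 genes described here encode the cytoplasmic intermediate filament proteins that mark cell types of the nervous system: Gfap, Vim, Nes, Nefl, Nefm, Nefh and Ina. They were chosen by name as a gene family, with no measured value in the rule, as 7 of the 18560 genes of a single-cell count table of the adult mouse olfactory bulb. The table held 52549 cell barcodes, of which 51426 carried a cluster. Cells came from 6 libraries, 2 for each of 3 groups, and all mice were of the strain C57BL/6NJ and aged 14 weeks. Control mice are labelled as without manipulation, although the study's text also describes the open side of occluded bulbs as the control, so the origin of the control tissue is not settled by the sources. Naris-occluded mice were deprived of odor on one side with a nostril plug, and trained mice learned to discriminate odors under water restriction, each for 6 weeks. Each library was a pool of 3 mice, with males in replicate 1 and females in replicate 2, so the comparisons measure the spread between pools and sex could not be told apart from replicate. All groups were wild type, no transgene was used, and the dissected tissue held some olfactory epithelium.

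Intermediate filaments are rope-like polymers that give cells mechanical strength, and cells of different origin build them from different proteins. GFAP is the filament of astrocytes and also of olfactory ensheathing cells, the glia that wrap the axons of olfactory sensory neurons. Vimentin is found in cells of mesenchymal origin, in endothelium and in many glia and immature cells, and nestin was first known from neural stem cells but is also made in vessels. The light, medium and heavy neurofilament proteins (Nefl, Nefm and Nefh) assemble with each other in axons, where they set axon caliber, and alpha-internexin (Ina) joins them and appears early in neuronal development.

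The genes lie on 5 chromosomes of the mouse build GRCm38, the same assembly as the mm10 build named in the submitters' processing notes. RefSeq places Gfap on chromosome 11 from 102887336 to 102897200, Vim on chromosome 2 from 13574311 to 13582826 and Nes on chromosome 3 from 87971093 to 87980451. Nefh lies on chromosome 11 from 4938754 to 4948064 and Ina on chromosome 19 from 47014681 to 47025327. Nefl (68083863 to 68089095) and Nefm (68119545 to 68125004) are neighbors on chromosome 14, separated by 30449 bases. Promoter sequences of 4 of the 7 genes were found in the RefSeq table (build GRCm38.p6). Nefl, Nefm and Nefh had no entry there, so the 4 available are shown. These 4 genes had their highest levels in 4 different clusters. Each run holds the 250 bases before the transcription start in the direction of the gene, at chr11:102897201-102897450 (minus strand) for Gfap, chr2:13574061-13574310 (plus) for Vim, chr3:87970843-87971092 (plus) for Nes and chr19:47014431-47014680 (plus) for Ina. Capitals mark the TATA box letters TATAAA, the GC box letters GGGCGG and the CCAAT box letters CCAAT, searched on both strands with no overlap among the matches.
Gfap: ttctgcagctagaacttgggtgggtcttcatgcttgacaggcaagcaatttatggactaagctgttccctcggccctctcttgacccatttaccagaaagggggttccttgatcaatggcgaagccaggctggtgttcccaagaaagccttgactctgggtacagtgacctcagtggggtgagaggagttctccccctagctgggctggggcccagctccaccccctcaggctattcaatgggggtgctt
Vim: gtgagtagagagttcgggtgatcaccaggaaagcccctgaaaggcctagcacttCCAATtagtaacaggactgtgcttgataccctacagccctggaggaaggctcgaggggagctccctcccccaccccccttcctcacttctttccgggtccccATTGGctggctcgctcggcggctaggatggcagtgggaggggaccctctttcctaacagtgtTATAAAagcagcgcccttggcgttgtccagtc
Nes: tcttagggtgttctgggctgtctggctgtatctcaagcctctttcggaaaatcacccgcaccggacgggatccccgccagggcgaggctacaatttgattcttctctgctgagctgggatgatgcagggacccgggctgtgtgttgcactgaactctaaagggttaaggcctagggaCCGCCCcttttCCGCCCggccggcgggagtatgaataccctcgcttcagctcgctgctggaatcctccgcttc
Ina: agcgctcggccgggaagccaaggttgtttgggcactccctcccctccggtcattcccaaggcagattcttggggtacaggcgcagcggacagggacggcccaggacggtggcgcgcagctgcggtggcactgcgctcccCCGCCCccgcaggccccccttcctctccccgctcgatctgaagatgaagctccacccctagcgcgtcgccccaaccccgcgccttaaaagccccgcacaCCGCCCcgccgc
Vim held 1 TATA box, 32 to 27 bases before its start, and 2 CCAAT boxes. Nes and Ina each held 2 GC boxes, all read on the opposite strand as CCGCCC. No listed letters matched in the Gfap window. Of all 32851 promoter windows of this length, 12.4% held the TATA letters, 32.7% the GC box and 33.8% the CCAAT box on either strand, so each match is a description of the sequence only. The share of G and C was 55.6% in Gfap, 58.4% in Vim, 58.8% in Nes and 70.8% in Ina, beside a median of 52.4% over all windows.

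The libraries held between 6705 and 10570 annotated cells and between 11841160 and 17065083 unique molecular identifiers (UMIs, counts of transcript molecules). Levels are given as CPM (counts per 1000000 UMIs) of a cluster, summed over its cells in each library, as mean ± SD over the 6 libraries (n = 6) unless stated. Clusters keep the numbers of the deposited annotation, which differ in part from those printed in the study, so cell numbers are given with them. Clusters had been built from the expression of all genes, the members included, so differences between clusters are descriptions without a test. Of 65 cell type marker genes checked, 62 were highest in a cluster of their own type. The sensory neuron, mitral/tufted (M/T) and immature neuron lists were compared only among the 18 neuronal clusters of the second annotation. The other lists were compared among the 38 whole-bulb clusters, and the interneuron list was not checked. In the 6 libraries 1461 of 49931 distinct barcode sequences were found more than once, and they belonged to 2956 cells. Trained replicate 1 had the lowest median depth (1028 UMIs per cell, against 1344.5 to 1723.5 in the others) and the highest median mitochondrial share (14.4%).

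The members differed in their place in the bulb, with endothelial cells shared by Vim and Nes and M/T cells by the 3 neurofilament genes. Gfap led in astrocytes, Vim in endothelial and ensheathing cells, and Nes in endothelial cells and in Mural1, which carried endothelial and mural markers. The neurofilament genes led in M/T cells, and Ina in immature neurons and granule cells. Astrocyte clusters made up 10.2% of the cells and held 47.6% of the Gfap UMIs (43.6% to 50.3% in single libraries). A further 22.8% of the Gfap UMIs lay in neuronal and 18.4% in ensheathing clusters. The 5 ensheathing clusters held 54.5% of the Vim UMIs with 22.5% of the cells, and the 2 endothelial clusters held 18.6% with 7.09% of the cells. The endothelial clusters held 59.4% of the Nes UMIs and the 2 mural clusters 15.7% with 1.80% of the cells. The 16 neuronal clusters, with 43.8% of the cells, held 84.6% of the Ina UMIs, 70.2% of Nefl, 67.4% of Nefm and 62.3% of Nefh. Of the UMIs of all genes, the astrocyte clusters held 9.48%, the ensheathing 25.8%, the endothelial 6.74%, the mural 2.03% and the neuronal 36.5%.

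**Figure D1:**
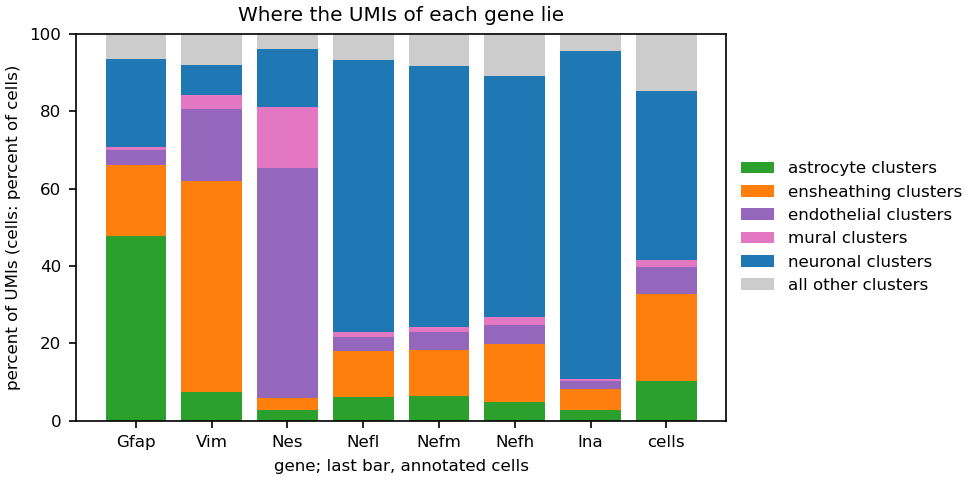
Percent of the UMIs of each gene that lay in each group of clusters, summed over the 6 libraries, with the percent of annotated cells in the last bar. Nes lay mostly in endothelial and mural clusters (59.4% and 15.7%), Vim in ensheathing clusters (54.5%) and Ina in neuronal clusters (84.6%).

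**Figure D2:**
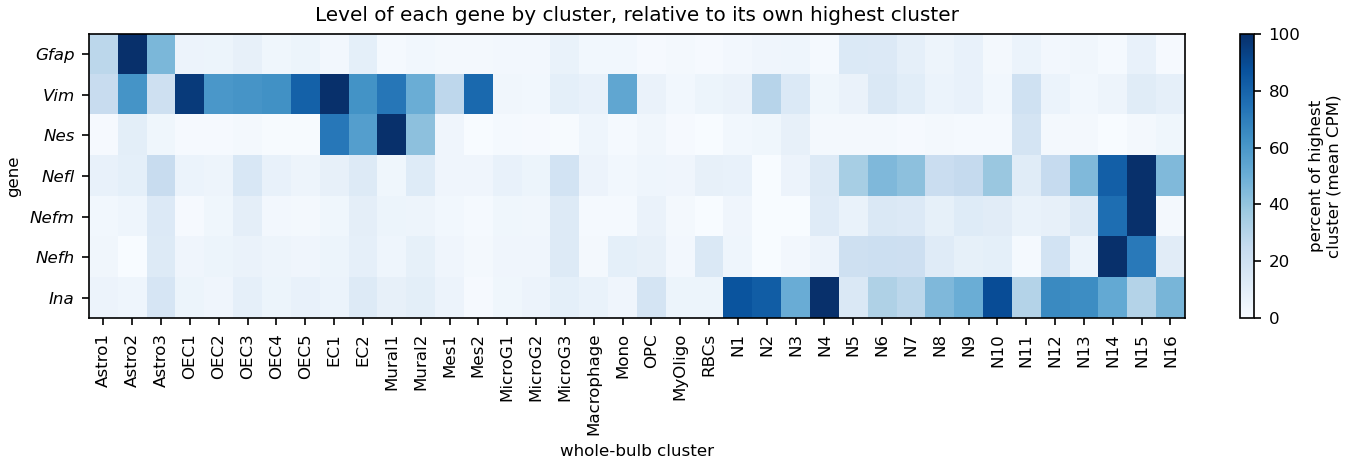
Mean CPM over 6 libraries of each gene (rows) in the 38 whole-bulb clusters (columns), as a percent of the highest cluster of that gene, so that shades compare clusters within a row and not genes. Gfap peaked in Astro2, Vim in EC1, Nes in Mural1, Nefl and Nefm in N15, Nefh in N14 and Ina in N4.

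Among the astrocyte clusters, Gfap was highest in the smallest. In Astro2 (336 cells) it measured 977 and 1382 CPM in control mice, 894 and 439 in naris-occluded and 684 and 1071 in the trained libraries, a mean of 908 ± 324 CPM. Astro3 (1780 cells) had 418 ± 132 CPM and Astro1 (3130 cells) 254 ± 60.7 CPM. Median mitochondrial shares were 8.44% in Astro2, 23.6% in Astro3 and 11.1% in Astro1, at median depths of 1859.5, 708.5 and 1851.5 UMIs. The part of these differences in the Gfap levels was not tested. The order Astro3 above Astro1 held in 6 of 6 libraries, and Astro2 above Astro3 in 5 of 6. The exception was naris-occluded replicate 2, which had the lowest Gfap level of the 6 in Astro2 (439 CPM) and the highest in both Astro1 (359 CPM) and Astro3 (658 CPM). Vim followed a different order within astrocytes, with 236 ± 55.3 CPM in Astro2, 92.1 ± 20.3 in Astro1 and 81.0 ± 17.02 in Astro3. Thus both glial filament genes were highest in Astro2, where the summed level of 6 astrocyte markers was 5709 ± 553 CPM, beside 11983 ± 631 in Astro1. Nes was low throughout the astrocytes, with 19.6 ± 21.9 CPM in Astro2 (13 UMIs) and 2.23 ± 1.24 in Astro1.

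Outside astrocytes, Gfap was low. Its next clusters were N5 (127 ± 55.3 CPM) and N6 (121 ± 22.8 CPM), and the highest ensheathing cluster was OEC3 with 73.3 ± 21.4 CPM. N5 was a sensory neuron cluster, with 19208 ± 3527 CPM of the sensory neuron list. N6 (3068 cells) had 2906 ± 274 CPM of that list, 5143 ± 1199 of the ensheathing and 1692 ± 180 of the astrocyte list, at a median of 655 UMIs per cell and a median mitochondrial share of 30.3%. The clusters N5 and N6 were not separated by their spread, since N5 was above N6 in 3 of 6 libraries. In microglia, taken here as cells that do not express the gene, Gfap still measured 21.8 ± 8.13 CPM (MicroG2) and 21.4 ± 12.7 CPM (MicroG1). With each cell thinned to 500 UMIs, 14.3% of Astro2 cells, 13.3% of Astro3 and 9.17% of Astro1 had a Gfap UMI, beside 5.14% in N5 and 1.24% in MicroG2. Without thinning the shares came to 32.1%, 19.3%, 27.5%, 8.63% and 4.25%, and these 5 clusters had median depths of 1859.5, 708.5, 1851.5, 818 and 1847 UMIs. Among neurons in the second annotation, Gfap was highest in n13-AstrocyteLike (134 ± 29.5 CPM, 2950 cells), followed by n01-OSNs (113 ± 33.7 CPM). The former was above the latter in 4 of 6 libraries, and n01-OSNs led with the control libraries alone. Their median depths were 656 and 808.5 UMIs, with median mitochondrial shares of 30.5% and 39.0%.

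Vim was high in several cell types. Its highest cluster was EC1 (2524 endothelial cells, 384 ± 29.3 CPM), with 423 and 387 CPM in the control, 368 and 340 in the naris-occluded and 381 and 407 in the trained libraries. OEC1 (2252 ensheathing cells) had 369 ± 37.4 CPM, OEC5 311 ± 40.3, the mesenchymal cluster Mes2 299 ± 61.0 and the mural cluster Mural1 280 ± 56.7. EC1 exceeded OEC1 in 4 of 6 libraries, so the leading pair was not separated by its spread. The largest ensheathing cluster, OEC4 (3436 cells), was the steadiest, between 227 and 255 CPM in the 6 libraries. Monocytes had 205 ± 79.5 CPM, while macrophages had 28.8 ± 14.2 and MicroG2 11.6 ± 4.16, close to the 11.5 ± 4.12 of the neuronal cluster N13. Among the immune clusters, Vim was therefore highest in monocytes.

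Nes was a vascular transcript in these libraries. Mural1 (158 cells) had 195 ± 47.9 CPM, with 195 and 180 CPM in the control, 120 and 185 in the naris-occluded and 259 and 233 in the trained libraries. EC1 had 141 ± 25.9 CPM, EC2 (1124 cells) 111 ± 43.7 and Mural2 (769 cells) 81.1 ± 27.3. Mural1 was above EC1 in 6 of 6 libraries, and EC1 above EC2 in 4 of 6. Mural1 carried both vascular marker lists, with 8707 ± 702 CPM for 5 endothelial genes and 10300.2 ± 1216 for 6 mural genes, at a median of 3508 UMIs per cell. Mural2 had 421 ± 149 CPM of the endothelial list and 20724 ± 2878 of the mural list. Nes was at or below 19.6 CPM in every other non-neuronal cluster.

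The only neuronal cluster with more than 20 CPM of Nes was N11 (951 cells, 34.9 ± 13.9 CPM), and most of its Nes UMIs lay in cells that the authors left out of the neuronal annotation. The 660 N11 cells left out had 38.4 ± 15.97 CPM of Nes and 84.6 ± 20.9 CPM of Vim, whereas the 291 cells kept had 10.4 ± 11.9 CPM (5 UMIs) and 29.0 ± 21.7 CPM. The endothelial list also differed between these cells, with 4042 ± 1547 CPM in those left out and 1083 ± 385 in those kept, beside 118 ± 36.4 in N1. Median depths were 2169.5 and 1158 UMIs. The part of the endothelial transcripts in the Nes level of N11 was not tested. In n04-Immature, the cluster of the youngest adult-born neurons, Nes was at 6.43 ± 1.76 CPM (43 UMIs in 3910 cells).

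The neurofilament genes shared the M/T cell clusters N14 (244 cells) and N15 (861 cells). Nefl had 154 ± 33.3 CPM in N15, with 106 and 169 CPM in the control, 168 and 128 in the naris-occluded and 200.2 and 154 in the trained libraries. In N14 it had 126 ± 71.9 CPM, and N15 was above N14 in 3 of 6 libraries. Nefm had 65.8 ± 14.4 CPM in N15 and 49.99 ± 30.4 in N14, and no other cluster exceeded 9.33 CPM. Nefh had 55.2 ± 50.6 CPM in N14 and 39.5 ± 18.6 in N15, and no other cluster exceeded 11.9 CPM. The medium and heavy subunits thus had their high levels in M/T cells, whereas Nefl was also present in other neuronal clusters, with 69.4 ± 18.1 CPM in N6, 69.2 ± 7.05 in N13 and 59.3 ± 12.9 in N10.

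The neuronal annotation resolved the M/T cells further. n17-M/TC-3 (927 cells) led for all 3 neurofilament genes, with 166 ± 56.3 CPM of Nefl, 72.3 ± 23.6 of Nefm and 57.9 ± 44.1 of Nefh. Granule cells of n12-GC-6 (237 cells) had 130 ± 33.4 CPM of Nefl and the periglomerular cells of n02-PGC-1 (1037 cells) 117 ± 23.8. Nefl in n17-M/TC-3 exceeded n12-GC-6 in 4 of 6 libraries, and n12-GC-6 exceeded n02-PGC-1 in 3 of 6. In these 2 interneuron clusters Nefm was at 15.7 ± 13.2 CPM (13 UMIs) and 9.61 ± 6.42 CPM (20 UMIs). Nefh was at 9.80 ± 13.1 CPM (9 UMIs) and 0.976 ± 1.61 CPM (2 UMIs) there, so only the light subunit had levels in interneurons near its level in M/T cells.

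Ina was arranged differently among neurons. Its highest whole-bulb clusters were N4 (141 cells, 144 ± 54.6 CPM), N10 (1943 cells, 128 ± 24.9 CPM) and N1 (3311 cells, 125 ± 20.0 CPM). N4 was above N10 in 2 of 6 libraries, so these neighbors were not separated. In N1 the control libraries had 104 and 104 CPM, the naris-occluded 135 and 116 and the trained 153 and 135. In the M/T cluster N15 Ina was at 44.5 ± 9.97 CPM, and in the sensory cluster N5 at 21.3 ± 16.9 CPM. In the second annotation it peaked in n12-GC-6 with 201 ± 59.3 CPM, above the next cluster in 6 of 6 libraries, while n04-Immature had 121 ± 19.0 CPM. The granule cell cluster n12-GC-6 was therefore the 1 neuronal cluster that ranked first or second for both Ina and Nefl. In MicroG2, Ina measured 8.35 ± 4.28 CPM and Nefl 8.42 ± 3.21 CPM.

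**Figure D3:**
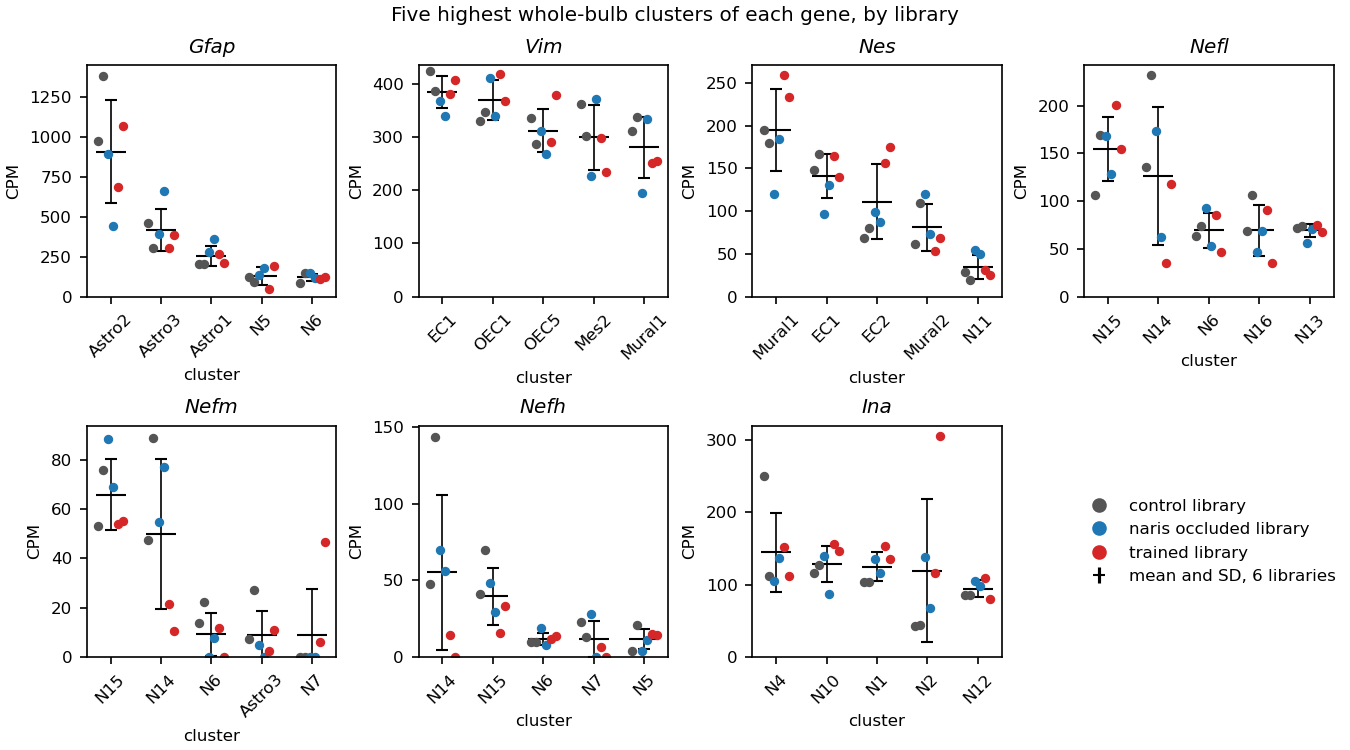
CPM of each gene in its 5 highest whole-bulb clusters, 1 point per library (gray, control; blue, naris occluded; red, trained) with the mean and SD of the 6 libraries in black. Gfap in Astro2 ranged from 439 to 1382 CPM, Vim in EC1 from 340 to 423 CPM, and the trained libraries were the lowest for Nefh in N14 (14.3 and 0 CPM).

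The study placed adult-born interneurons on a developmental path that starts in n04-Immature and divides into axis A, with 8 clusters, and axis B, with 3. Nefl was higher along both, from 11.4 ± 5.05 CPM in n04-Immature to 62.0 ± 4.61 on axis A and 34.2 ± 7.86 on axis B, in 6 of 6 libraries on each axis. The mean log2 ratio to n04-Immature was 2.47 ± 0.77 for axis A and 1.60 ± 0.86 for axis B (SD, n = 6, with 1 CPM added). Nefm had a log2 ratio of 1.29 ± 0.45 on axis A and 0.94 ± 0.84 on axis B, from 17 UMIs in n04-Immature, and Nefh had 1.22 ± 1.26 and 1.43 ± 1.22, also from 17 UMIs. Ina was lower instead, with log2 ratios of -0.21 ± 0.15 on axis A and -0.80 ± 0.24 on axis B, the latter lower in 6 of 6 libraries. Vim had a log2 ratio of -0.73 ± 0.49 on axis A and 0.02 ± 0.48 on axis B. Gfap had 0.00 ± 0.38 and 0.96 ± 0.23, and Nes -0.85 ± 0.72 and -1.03 ± 1.15 from 43 UMIs. On axis B, n07-GC-2, n06-Transition and then n09-GC-3 had median depths of 882, 730 and 1291 UMIs and median mitochondrial shares of 17.4%, 15.2% and 9.52%, beside 1668 UMIs and 8.44% in n04-Immature. Their summed astrocyte markers were 615 ± 55.7, 938 ± 98.3 and 636 ± 101 CPM beside 561 ± 49.2, and their summed ensheathing markers 2556 ± 610, 3197 ± 513 and 1959 ± 807 CPM beside 1094 ± 230. The part of these differences in the axis B ratios was not tested. The axes were defined by clusters of the same expression data, so these ratios carry no test.

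Likeness of pattern was measured as Pearson's r of log2(CPM + 10) over the 38 clusters, which share the 6 libraries, among 8795 genes with at least 50 CPM in a cluster. Nefm and Nefh had r = 0.87 with each other, and each had r = 0.79 with Nefl. All other pairs of members were below 0.5, and the lowest was Vim with Ina (r = -0.53). The gene most like Gfap was Mlc1 (r = 0.878), a membrane protein of astrocyte endfeet, and the gene most like Vim was Id3 (r = 0.893), an inhibitor of helix-loop-helix transcription factors. Foxf2, a forkhead transcription factor of brain vessels, was most like Nes (r = 0.949). Rims4, a presynaptic active zone protein, was most like Nefl (r = 0.930), and Cdhr1, the cadherin that marks M/T cells, most like Nefm (r = 0.938). BC048546 was most like Nefh (r = 0.916), and Crmp1, a regulator of growth cone collapse, most like Ina (r = 0.966).

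The 3 groups were compared within 8 cell classes, on counts summed per library and class, with edgeR's quasi-likelihood test over all genes and Benjamini-Hochberg adjustment at 0.05. Of 56 combinations of member and class, 37 passed the filter on low counts, so the filter removed, among others, Nefm and Nefh in astrocytes, endothelial and mural cells. No member was called in the comparison of naris-occluded with control libraries, where 2 of the 37 tests had an unadjusted p under 0.05 and DESeq2 also called none. With training, 1 of the 37 was called, as Nefh fell in M/T cells, and 4 had an unadjusted p under 0.05. Over all genes tested in the 8 classes, 5.26% with occlusion and 7.0% with training had such a p. The libraries of the groups did not overlap in 15 of the 37 tests with occlusion (4 above the controls and 11 below) and in 11 with training (6 above and 5 below), beside 35.4% and 36.4% over all genes tested. Few genes of any kind were called. With occlusion the calls were 0.0191% of all tested genes in astrocytes, 0.00828% in ensheathing, 0.0104% in endothelial and 0.0701% in mural cells, and 0.416% in M/T cells, 0.107% in immature neurons, 0.0499% in later interneurons and 0.287% in sensory neurons. With training they were 0.0287%, 0%, 0.259%, 0.0526%, 0.121%, 0%, 0.208% and 0% in the same order. In bulk sums of this kind, fewer expressing cells and less RNA per cell cannot be told apart.

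Nefh in the M/T class (1133 cells of n15, n16 and n17) measured 44.6 and 104 CPM in control mice, 62.8 and 44.8 in naris-occluded and 15.1 and 10.7 in the trained libraries. Both trained libraries were below both controls and below both naris-occluded libraries, while the naris-occluded libraries overlapped with the controls. The log2 fold change of trained against control was -2.44 ± 0.56 (SE, n = 2 against 2, edgeR's quasi-likelihood test with Benjamini-Hochberg adjustment, adjusted p = 0.0361). For naris occlusion it was -0.47 ± 0.37 (adjusted p = 0.751 in the same test). The counts behind these levels were small: 17 and 33 UMIs in the controls, 29 and 11 in the naris-occluded and 4 and 2 in the trained libraries. They came from 13 and 17, 14 and 7, and 4 and 2 cells. In control replicate 2, 1 cell held 15 of the 33 UMIs, and in naris-occluded replicate 1, 1 cell held 11 of the 29. The call was lost with the DESeq2 Wald test (adjusted p = 0.999), in edgeR with cells of at least 1000 UMIs (0.179) or a mitochondrial fraction of at most 0.2 (0.339), and in n17-M/TC-3 alone (0.264), with log2 fold changes between -2.23 and -2.77. Without control replicate 2 the fold change was -1.76 (adjusted p = 0.548 in the same edgeR test), without trained replicate 1 it was -2.82 (0.101) and without trained replicate 2 it was -2.24 (0.131), each with an arm of 1 library that was assumed to vary like the other groups.

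The M/T class itself differed between libraries in ways that were measured beside the call. The share of its cells in N14, the deeper of its whole-bulb clusters, was 9.29% and 15.7% in the controls, 34.8% and 22.8% in the naris-occluded and 21.7% and 25% in the trained libraries. Cdhr1, the M/T marker, had 2140 and 1955 CPM in the controls, 1466 and 1745 in the naris-occluded and 1702 and 1651 in the trained libraries. The summed interneuron markers were 664 and 568 CPM in the controls, 418 and 367 in the naris-occluded and 752 and 895 in the trained libraries, and the part of these differences in the Nefh level was not tested. Among M/T class cells that lie in N15, Nefh had 42.6 and 73.8 CPM in the controls against 16.4 and 22.8 in the trained libraries, and among those in N14 56.0 and 144 against 15.8 and 0. These levels rest on 10 and 12 UMIs against 2 and 2 in N15, and on 7 and 21 against 2 and 0 in N14.

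The other neurofilament genes of M/T cells were not called with training. Nefm had 49.9 and 82.1 CPM in the controls, 62.8 and 73.4 in the naris-occluded and 37.8 and 37.5 in the trained libraries, with a log2 fold change of -0.81 ± 0.43 for training (adjusted p = 0.708, edgeR). Nefl had 123 and 199, 171 and 89.7, and 110 and 123 CPM in the same order, with -0.49 ± 0.30 (adjusted p = 0.784, edgeR). For Nefm both trained libraries lay below the controls, and for Nefl both did so with 123.27 CPM in trained replicate 2 just under the 123.39 CPM of control replicate 1. Ina in the same cells had 42.0 and 50.5, 49.8 and 48.9, and 68.1 and 69.7 CPM, with 0.55 ± 0.40 for training (adjusted p = 0.832, edgeR).

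**Figure D4:**
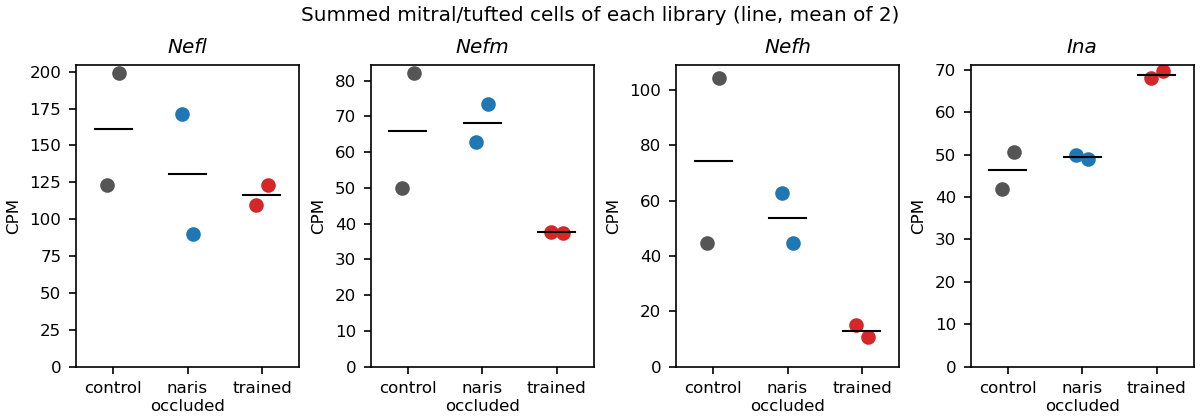
CPM of the 4 neuronal intermediate filament genes in the summed M/T cells of each library (points) with the mean of each group of 2 (lines), on linear axes from 0. Nefh was at 44.6 and 104 CPM in the controls and at 15.1 and 10.7 CPM in the trained libraries.

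The remaining members were not called in any class, and their main values are given with standard errors. Gfap in astrocytes had 314 and 327 CPM in the controls, 349 and 397 in the naris-occluded and 297 and 297 in the trained libraries. The log2 fold changes were 0.19 ± 0.12 with occlusion (adjusted p = 0.992, edgeR) and -0.11 ± 0.12 with training (adjusted p = 0.945, edgeR), although the groups did not overlap in either comparison. In Astro1 alone, the largest astrocyte cluster, the value for training changed sign. The share of astrocytes in Astro2, where Gfap was highest, was 7.14% and 7.07%, 7.55% and 8.76%, and 3.04% and 5.35% in the same order of libraries. In Astro3 it was 31.4% and 35.1%, 28.3% and 21.4%, and 49.1% and 35.8%. In MicroG2, cells taken here as not expressing the gene, Gfap had 19.8 and 8.56 CPM in the controls, 22.1 and 31.2 in the naris-occluded and 29.4 and 19.7 in the trained libraries. In the neuronal cluster N13 it had 13.7 and 21.8, 34.9 and 43.2, and 42.4 and 14.3 CPM. Both naris-occluded libraries were thus above both controls in these cells too, as in endothelial cells and sensory neurons. For Gfap they overlapped with the controls in ensheathing cells, immature neurons and later interneurons, and were below them in M/T cells. The part of this in the astrocyte values was not tested. Vim in ensheathing cells had 273 and 264, 294 and 255, and 260.3 and 283 CPM, and its log2 fold changes of 0.01 ± 0.10 and 0.02 ± 0.10 had the smallest errors of all member tests. In endothelial cells Vim had -0.19 ± 0.14 with occlusion and -0.01 ± 0.13 with training.

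Nes in endothelial cells had 129 and 150 CPM in the controls, 97.0 and 121 in the naris-occluded and 163 and 145 in the trained libraries. Both naris-occluded libraries were below both controls, with a log2 fold change of -0.36 ± 0.16 that was not called (adjusted p = 0.968, edgeR). Nefl in ensheathing cells, where it was low, had 16.6 and 12.8, 8.82 and 7.87, and 15.1 and 8.78 CPM. Its log2 fold change with occlusion was -0.84 ± 0.27, the lowest unadjusted p of the occlusion tests (0.00766), and it was not called (adjusted p = 0.998, edgeR).

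With training, the log2 fold change of Ina was above 0 in 6 of 6 classes tested. That of Nes was above 0 in 4 of 4 and that of Nefl in 0 of 7, and none of these was called. For Gfap it was above 0 in 1 of 7, for Vim in 4 of 7, for Nefm in 1 of 3 and for Nefh in 0 of 3. The sign for Nes in endothelial cells changed with the largest cluster alone. That for Nefl in ensheathing cells changed when single libraries were left out. The classes share the same libraries, so these signs are not independent. In immature neurons Ina had 110.0 and 96.1 CPM in the controls, 127 and 115 in the naris-occluded and 152 and 128 in the trained libraries, with 0.42 ± 0.15 for training (adjusted p = 0.939, edgeR). In later interneurons it had 86.5 and 85.8, 96.6 and 80.5, and 114 and 97.1 CPM, with 0.29 ± 0.14 for training (adjusted p = 0.546, edgeR). Trained replicate 1 also had the highest Ina level in cells with little of it, at 20.6 CPM in astrocytes and 17.2 CPM in ensheathing cells against 7.28 to 11.2 and 4.07 to 8.06 in the control and naris-occluded libraries. Trained replicate 2 had 8.51 and 7.48 CPM there, and the part of this in the neuronal values was not tested.

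**Figure D5:**
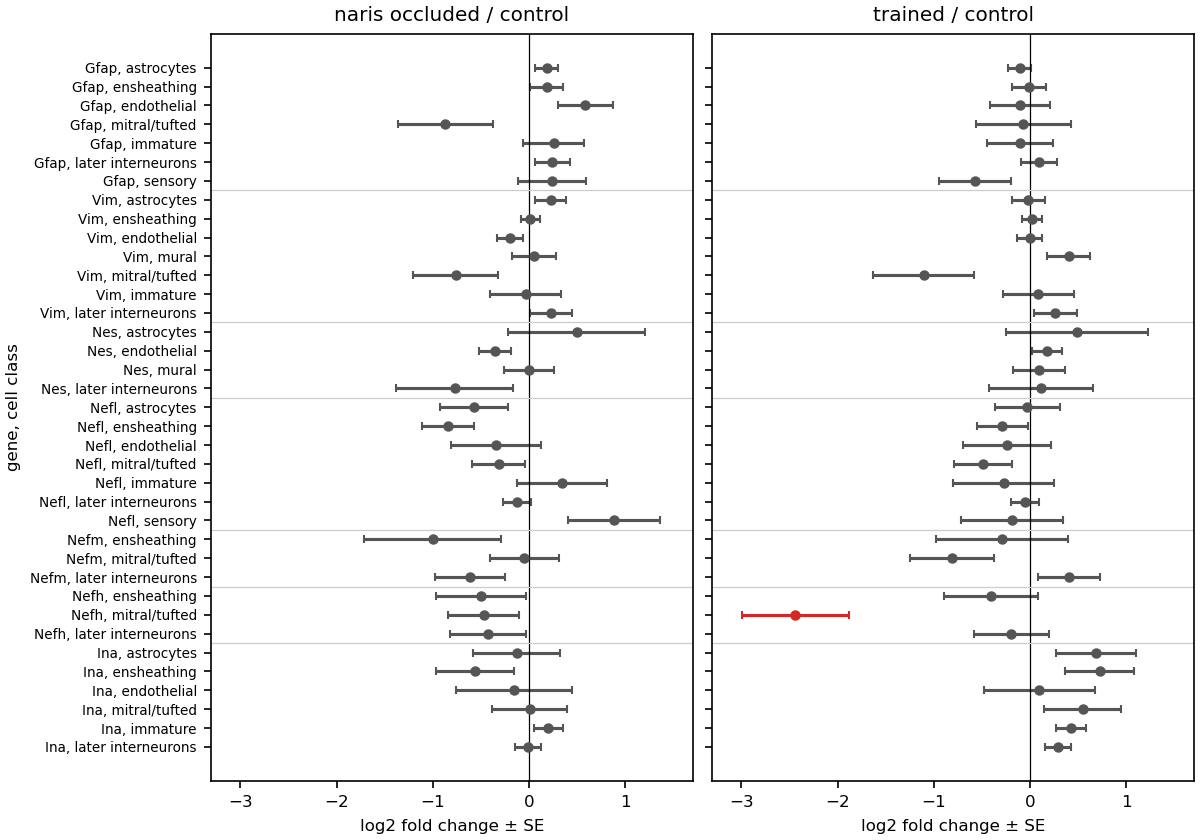
Log2 fold change ± SE of the 37 tested combinations of gene and cell class, for naris-occluded against control (left) and trained against control (right), from edgeR with 2 libraries per group. Only Nefh in M/T cells with training passed the threshold (red), at -2.44 ± 0.56.

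Genes that work with intermediate filaments were followed with 3 lists. Of 16 other intermediate filament genes, 11 were in the table used. Des, the muscle filament desmin, peaked in Mural2 (204 ± 33.1 CPM), and Synm, synemin, in EC1 (116 ± 22.0 CPM), next to Vim. Bfsp2, a lens filament protein, peaked in the oligodendrocyte precursors (188 ± 43.3 CPM), and Prph, the filament of peripheral neurons, had 21 UMIs in all. Among 9 crosslinkers, linkers and turnover factors, Cryab, a small heat shock protein, was highest in myelinating oligodendrocytes (4947 ± 131 CPM), and Dst, a filament crosslinker, in OEC1 (288 ± 22.2 CPM). None of the 29 tests of other filament genes and none of the 41 tests of linkers was called in either comparison, and 1 and 5 with occlusion and 1 and 3 with training had an unadjusted p under 0.05 in edgeR's quasi-likelihood test. DESeq2 called none of them either, but gave no adjusted p for 5 and 7 of these tests with occlusion and 10 and 9 with training. Tests without an adjusted p could not be called. Of 15 genes known from reactive astrocytes, 6 were tested in astrocytes and none was called by edgeR or DESeq2, with 0 and 1 of them at an unadjusted p under 0.05 in edgeR. Their median log2 fold change in astrocytes was 0.06 with occlusion and 0.08 with training, beside medians of 0.00 over all genes tested. Over all 8 classes, none of the 50 tests of this list was called by either tool. DESeq2 gave no adjusted p for 9 of them with occlusion and 19 with training, so these could not be called. An unadjusted p under 0.05 was found for 7 with occlusion and 13 with training in edgeR, and for 2 and 4 in DESeq2. The shares over all genes were 5.26% and 7.0% in edgeR. No such share is given for DESeq2 here, so its counts have no background to be read against. With training, 5 of the 13 were among the 10 tests in endothelial cells, where 8.43% of all genes had such a p, and 4 among the 11 in ensheathing cells, where 6.61% did. They went both ways, with log2 fold changes in endothelial cells from -1.93 for Lcn2 to 2.60 for Cxcl10, and in ensheathing cells from -0.68 for Cd44 to 0.76 for Socs3.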

How the data were processed

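Libraries were made with the 3′ v2 kit for Chromium droplets, and the authors counted UMIs with Cell Ranger 2.0.0 on build mm10 and clustered cells in Seurat 2.2.1, per the submitters' processing notes. They deposited raw counts per gene and barcode, and an annotation with library, cluster and mitochondrial fraction per cell. Their methods state that doublets were removed. Normalized values deposited beside them were not used. Cell name starts and the library column disagree for the trained libraries. The column was used, and Xist matched the sex of each pool (0 to 5 UMIs against 20000 to 27904).

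Here, counts were summed per library and cluster or class and divided by the summed UMIs. Fold changes came from edgeR 4.0.16 in R 4.3.3 (glmQLFit and glmQLFTest, TMM factors, filterByExpr, all 6 libraries, no covariate) per class, with DESeq2 1.42.0 as an alternative. The script was tested on simulated data. Thinning to 500 UMIs was 1 random draw. The SD over libraries covers counting error and the spread between pools, and with it any difference between the 3 groups and between the sexes. The members (a gene family, by name) and the lists were chosen with earlier results of these data known. Genes named are the members, the lists, Xist, leading genes of N3 (Top2a and Cenpf), and for each member the genes most like it. A total of 30 alternatives were planned. Sequence came from RefSeq (GRCm38.p6). The marker genes that were not highest in their own type are not reported here.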

Additional observations from a re-analysis of the deposited data

Results flagged for a closer look

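Groups of 2 libraries are too small for a test of single outlying samples, so none was made. Some members had both treated libraries above both controls in one cell class and both below in another, and these differences between classes were not tested. Groups of 2 libraries often do not overlap, as in 35.4% of all gene tests with occlusion and 36.4% with training. No value below was called in edgeR's quasi-likelihood test. With naris occlusion, Gfap had a log2 fold change of 0.19 in astrocytes, 0.58 in endothelial cells and 0.24 in sensory neurons, but -0.87 in M/T cells. The M/T value rested on 14 and 15 Gfap UMIs in the controls and 10 and 7 in the naris-occluded libraries. Both naris-occluded libraries were also above both controls for Gfap in MicroG2 and N13, and the part of this in these values was not tested. Ina with occlusion had 0.20 in immature neurons and -0.56 in ensheathing cells, where it was low. There the controls held 30 and 27 Ina UMIs and the naris-occluded libraries 18 and 26. With training, Vim had 0.26 in later interneurons and 0.40 in mural cells, but -1.11 in M/T cells. In M/T cells the controls held 19 and 14 Vim UMIs and the trained libraries 6 and 4. Nefm with training had 0.40 in later interneurons and -0.81 in M/T cells.

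The 1123 barcodes without a cluster were left out of all comparisons, and all 7 members were above the limit that a count of 0 allows there (0.993 CPM). Over these barcodes together, Gfap was at 76.2 CPM, beside 65.9 CPM over the annotated cells. Vim was at 109 CPM beside 129, and Ina at 35.1 beside 38.1. Nefl was at 20.9 CPM beside 25.2, Nefm at 2.98 beside 4.92 and Nefh at 3.31 beside 4.66. Nes was at 4.97 CPM from 15 UMIs beside 15.4 CPM. The barcodes had a median of 2327 UMIs.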

How the results depend on the processing

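With naris occlusion no member was called under any of the 14 alternatives. With training the count of called members went from 1 to 0 with the DESeq2 Wald test, in cells with at least 1000 UMIs, in cells with a mitochondrial fraction of at most 0.2 and in the largest cluster of each class, and it ranged from 0 to 1 when single libraries were left out. The largest cluster and the stricter cell filters hold fewer UMIs, while the DESeq2 test used the same summed counts as the main fit. The cause of the lost calls was not tested. The sensory class could not be fitted under the mitochondrial limit, since 1 library kept 0 cells. With the replicate number as a block, 0 members were called with occlusion and 1 with training (Nefh in M/T cells, log2 fold change -2.40, adjusted p = 0.00840 in edgeR). The numbers mark the sex of the pool in every group, and the labels tie them to no shared litter or day. Over genes, the deviations of same-numbered libraries from their group means had correlations between 0.0258 and 0.240, and all 3 pairs of groups were over 0.1 in 5 of 8 classes (in M/T cells, 0.0258 for control with naris-occluded and 0.112 for control with trained). Same-numbered pools thus deviated together in most classes, which the fit without the block does not model. The block changed no other call.

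Of 20 fold changes followed through 274 alternatives, 253 kept direction and call, 7 lost the call (all Nefh in M/T cells with training) and 14 changed sign, none of them called. The 20 were chosen as the class with the highest level of each member and the pairs of gene and class with an unadjusted p under 0.05, in both comparisons. Only Nefh in M/T cells with training was called in the main fit, and it lost the call in 7 of 14 alternatives. For the others, a kept call means that they stayed uncalled. With the largest cluster of the class alone, training gave 0.20 for Gfap in astrocytes and -0.0184 for Nes in endothelial cells, and occlusion gave 0.0671 for Ina in later interneurons. Cells of at least 1000 UMIs gave 0.0143 for Vim in endothelial cells with training. With single libraries left out, the values ranged from -0.0722 to 0.0573 for this Vim comparison and from -0.749 to 0.0505 for Nefl in ensheathing cells with training. With occlusion they ranged in M/T cells from -0.890 to 0.0445 for Nefl, from -0.381 to 0.321 for Nefm and from -0.987 to 0.214 for Nefh, and from -0.142 to 0.114 for Ina in later interneurons.

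All 7 members kept their highest whole-bulb cluster in cells of at least 1000 UMIs, 6 with means over single cells, and 5 each with thinned shares, with the control libraries alone and without clusters of under 20 cells in a library (Nes then led in EC1 and Ina in N10). Nefh led in N15 with means over single cells and with thinned shares, where Ina led in N10. With the control libraries alone, Nefl and Nefm led in N14. Leaving out a library kept 6 or 7. In the neuronal annotation between 5 and 7 were kept. Levels resting on a few UMIs, such as those of Nefm and Nefh outside M/T cells, are limited by depth.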

Other observations

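Nuclear lamins and keratins are other branches of the intermediate filament family, and those in the list peaked in several clusters. Lmna shared its highest cluster with Des, Lmnb2 was highest in N11 (28.7 ± 6.59 CPM) and Krt18 had 3 UMIs in all. Lmna, the A-type lamin, was highest in Mural2 with 168 ± 43.0 CPM (SD, n = 6), whereas Lmnb1, a B-type lamin, was highest in N3, a cluster led by cell division genes such as Top2a and Cenpf, with 156 ± 80.3 CPM. Krt10, a keratin best known from skin, had 5780 UMIs in all and was highest in N16 with 119 ± 20.5 CPM. Krt19, a keratin of simple epithelia, had 43 UMIs and was highest in Mes2 with 42.0 ± 14.1 CPM. These values are descriptions across clusters, without a test.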
